A study of Homo sapiens with 6 samples.

Results

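Chromosome 11 carries the largest share of the human olfactory receptor repertoire. The genes examined here were all GENCODE release 44 protein-coding genes on chromosome 11 whose symbol has the form of an olfactory receptor (OR, a family number, a subfamily letter and a gene number). The rule used names and position, not measured values. It gave 178 genes of the 19970 protein-coding genes on the autosomes and X, and the same name rule gave 238 receptor genes on other chromosomes. Peaks of chromatin immunoprecipitation sequencing (ChIP-seq) were scored at these genes in the MDA-MB-231 cell line, established from a human breast tumour of the triple-negative type. The E2F1 libraries came from untreated cells, from cells given DMSO, the solvent, for 72 h, and from cells given GSK126 at 1 µM for 72 h. GSK126 inhibits EZH2, the methyltransferase that writes trimethylated lysine 27 of histone H3 (H3K27me3). The H3K27me3 libraries came from cells transduced for 24 h with lentivirus for either control shRNA or shRNA directed at E2F1 (shE2F1) and kept for 72 h in puromycin at 2 µg/ml, so both had been infected and selected. Each condition had 1 library, no condition had a replicate, and the input of untreated cells was not used here, so differences between libraries were not tested and intervals cover counting error only. Whether E2F1 protein was lost in the shE2F1 cells cannot be read from peak lists.

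Olfactory receptors are G protein-coupled receptors that bind odorants on the cilia of olfactory sensory neurons. Each neuron transcribes a single allele of a single receptor gene, and the remaining copies are kept silent in that tissue, there mainly in heterochromatin marked by methylation of H3 lysine 9. Most receptor genes have 1 intronless coding exon, lack a CpG island and lie in arrays made by repeated duplication. Class I receptors (families OR51, OR52 and OR56) form a single array on chromosome 11 and are the type also found in fish, and all others belong to class II. E2F1, in contrast, binds CG-rich promoters of genes for DNA replication and the cell cycle. H3K27me3 is deposited by Polycomb repressive complex 2 and marks silent genes.

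The 178 genes were AT-rich. The median GC content within 1 kb of the transcription start site (TSS) was 38.9% (range 28.1 to 52.2%), whereas the median of all protein-coding genes was 56.0%. The ratio of observed to expected CpG had a median of 0.157 at the receptor genes and of 0.637 at all genes. Of the receptors, 57 were class I and 121 class II. Joining neighbours less than 200 kb apart placed 177 genes in 10 clusters of at least 3 genes, and OR2AT4 stood alone. In 82 of the 178 genes every annotated TSS coincided with the start codon, so that the window of 1 kb on either side of a TSS was centred on the coding start rather than on a mapped promoter.

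The sequences that carry the E2F1 result are shown first. They are 151 bp of hg38, forward strand, centred on the summit of the E2F1 peak with the highest fold at a receptor gene in the DMSO list (OR8D1) and in the GSK126 list (OR8B12), and, as the contrast, on the summit of the untreated peak at FAM111A, the gene with an E2F1 peak nearest to the left of the OR5AN1 to OR10V1 cluster. FAM111A encodes a protease that acts at replication forks. Its peak had the highest fold at any protein-coding gene in the untreated list, 44.6, whereas the folds were 6.03 at OR8D1 and 3.94 at OR8B12. The contrast is thus with an extreme site of another library. Capitals mark the E2F motif, read as TTNNCGC on either strand, with C or G at each N.
OR8D1, chr11:124310028-124310178: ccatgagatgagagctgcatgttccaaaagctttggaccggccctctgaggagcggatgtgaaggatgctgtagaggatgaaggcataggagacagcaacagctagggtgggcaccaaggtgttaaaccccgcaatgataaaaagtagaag
OR8B12, chr11:124543190-124543340: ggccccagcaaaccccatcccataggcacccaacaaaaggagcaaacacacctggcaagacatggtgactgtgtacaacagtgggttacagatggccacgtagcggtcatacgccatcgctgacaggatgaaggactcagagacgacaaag
FAM111A, chr11:59144727-59144877: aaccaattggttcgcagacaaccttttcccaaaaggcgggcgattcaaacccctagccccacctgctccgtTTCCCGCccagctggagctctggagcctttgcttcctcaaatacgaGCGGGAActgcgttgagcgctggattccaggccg
The FAM111A window held 2 matches and the receptor windows none. The GC content of the windows was 51.0% at OR8D1, 54.3% at OR8B12 and 58.3% at FAM111A.

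To ask whether E2F1 was detected at receptor genes, an E2F1 peak was assigned to a gene when its summit lay within 1 kb of any of its TSSs. In untreated cells 0 of 178 receptor genes had an E2F1 peak, which allows a share of up to 1.69%, and 5.85% of all protein-coding genes had one. In DMSO 7 receptor genes had a peak (3.93%, exact Clopper-Pearson 95% interval 1.60 to 7.93%), against 33.5% of all genes. In GSK126 it was 3 receptor genes (1.69%, 0.349 to 4.85%), against 51.5% of all genes. The receptor share was thus below the background in each list, and the difference between the DMSO and GSK126 shares of the receptors was not tested.

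Genes of like base composition were read alongside. Among 2511 genes that are no receptor and had a GC content between the 5th and 95th percentiles of the receptors, E2F1 peaks were called at 2.07% in untreated, 9.68% in DMSO and 15.2% in GSK126. In DMSO the interval of the receptors (up to 7.93%) lay below that of the genes of similar GC content (8.55 to 10.9%), as it did in GSK126. In untreated the intervals overlapped (up to 2.05% and 1.55 to 2.71%). These genes had a higher median GC content than the receptors (41.7 against 38.9%). In narrower strata the DMSO intervals overlapped: 0.375 to 10.7% and 3.79 to 7.23% at 35 to 40% GC, 1.01 to 13.5% and 7.87 to 11.3% at 40 to 45% GC. Those of GSK126 did not overlap in these strata. Receptor genes on other chromosomes had 0, 0 and 1 peak of 238 in the untreated, DMSO and GSK126 lists.

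**Figure D1:**
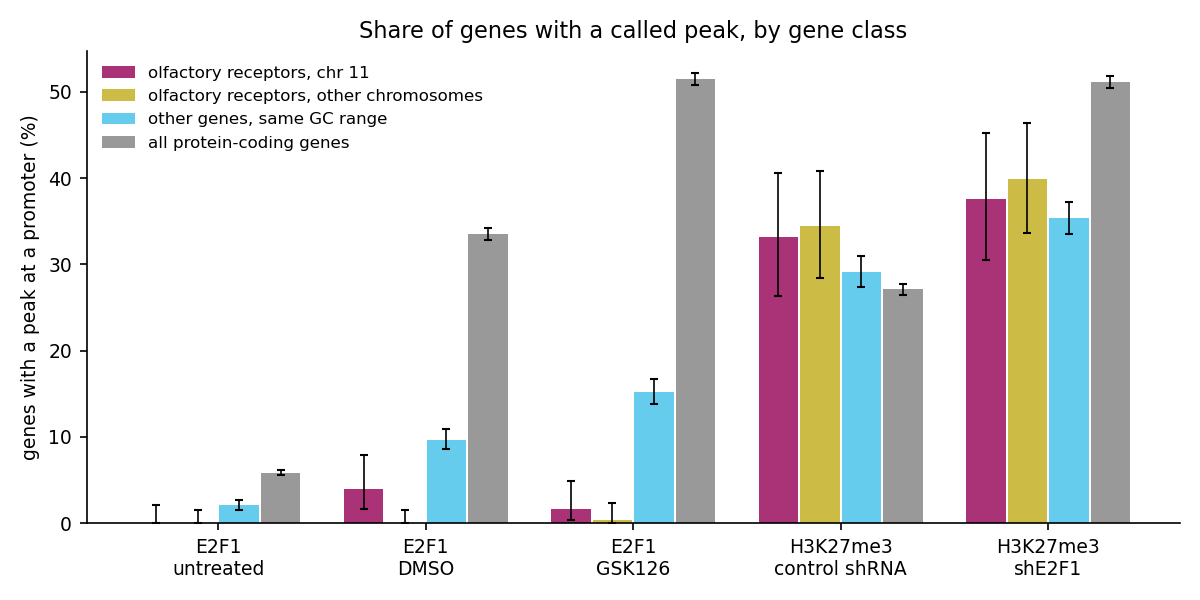
Share of genes with a called peak at a promoter (y axis, %) in the 5 peak lists (x axis) for olfactory receptor genes on chromosome 11 (n = 178), olfactory receptor genes on other chromosomes (n = 238), other genes in the same GC range (n = 2511) and all protein-coding genes (n = 19970), with exact 95% intervals as error bars. The receptor genes stay at or below 3.93% in the E2F1 lists and lie between 33.1 and 39.9% in the H3K27me3 lists.

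The DMSO peaks at receptor genes were mostly weak. OR4D5 had a fold enrichment of 6.01 (−log10 q 9.02, 20 fragments at the summit over a background of 2.49). At OR8D1 a peak with a fold of 6.03 (16 fragments) lay 734 bp downstream of a TSS, and a second peak with a fold of 3.24 lay 914 bp upstream of it. The OR4D5 peak and the first OR8D1 peak exceeded the median fold of all DMSO peaks, 4.57. The remaining DMSO peaks had folds of 4.18 at OR56A5, 3.24 at OR5AP2, 3.72 at OR8D4, 2.76 at OR6T1 and 4.06 at OR10S1. In GSK126 the folds were 3.70 at OR56A4, 3.44 at OR8D1 and 3.94 at OR8B12, all below the median of 6.33 for that list. Fragment numbers, back-calculated from fold and p, ranged from 9 to 21 over these 11 peaks.

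The 11 peaks shared neither a position nor a motif. No peak overlapped a peak of another E2F1 list, and OR8D1, the single gene called in both treated lists, had its GSK126 summit (chr11, position 124313604) at a different place from its DMSO summits (124310103 and 124311751). Summits lay 265 to 914 bp from the TSS, 10 of the 11 lay downstream of it, and all lay inside the annotated gene. No E2F motif was found within 100 bp of any of the 11 summits. Of all peaks, 17.5% in DMSO and 26.9% in GSK126 had one. Since such an absence allows up to 3 peaks with a motif, the 11 peaks are too few to show a lower share. The GC content within 100 bp of the summit was between 40.3% (OR8D4) and 55.2% (OR4D5 and OR10S1). In windows of the same size, the mean over receptor genes was 45.2 to 48.2% at 200 to 800 bp downstream of the start codon.

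Of the 7 DMSO genes, 5 (OR8D4, OR4D5, OR6T1, OR10S1 and OR8D1) belonged to the OR6X1 to OR8A1 cluster, which holds 24 receptor genes. That cluster had 29 DMSO peaks, or 35.0 per Mb, compared with 10.7 per Mb on chromosome 11 outside the clusters and 5.39 per Mb over the autosomes and X. In GSK126 it had 11 peaks, or 13.3 per Mb, compared with 7.48 per Mb on chromosome 11 outside the clusters and 4.90 per Mb over the autosomes and X. Of its 29 DMSO peaks 3 overlapped a GSK126 peak (10.3%, interval 2.19 to 27.4%), while 47.0% of all DMSO peaks did (46.2 to 47.8%). Over all 10 clusters the share was 6 of 50 (12%, 4.53 to 24.3%). Without this cluster the number of receptor genes with a DMSO peak was 2 and with a GSK126 peak 1.

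The untreated list had 2 peaks within the clusters. One stood at PATL1, a factor of messenger RNA decay inside the OR5AN1 to OR10V1 cluster, with folds of 5.46 in untreated, 5.10 in DMSO and 10.7 in GSK126. The other lay 25.0 kb upstream of OR6M1 (chr11:123831140-123831386), with a fold of 5.40 and 8 fragments at the summit, and had no E2F motif within 100 bp. The strongest peak in any cluster lay 39.0 kb beyond the TSS of OR4D9 (chr11:59549955-59550696). The nearest TSS of a gene that is no receptor on chromosome 11, that of the long noncoding RNA gene ENSG00000287264, was 4923 bp from its summit. The peak was a GSK126 peak with a DMSO peak at the same place. Its fold was 9.37 in DMSO and 23.8 in GSK126, it had an E2F motif, and it was absent from the untreated list; it was singled out after its values were seen. Protein-coding genes inside the clusters that are no receptor and had an E2F1 peak were, besides PATL1, TRIM68 (fold 3.82 in GSK126), OSBP (3.70 in GSK126) and VWA5A (3.69 in GSK126). E2F1 peaks also lay within 1 kb of a TSS of the long noncoding RNA genes ENSG00000287264 (5.96 in DMSO and 7.86 in GSK126) and LINC02739 (3.44 and 5.84). PATL1-DT shared the PATL1 peaks. The pseudogenes OR5M2P (4.36 in DMSO) and OR8B7P (5.82 in GSK126) had such a peak as well. TRIM68 is a ubiquitin ligase and OSBP a sterol transfer protein. STX3, a membrane fusion protein whose gene begins at the right edge of the OR5AN1 to OR10V1 cluster, had its peaks 41.1 kb outside it (fold 4.24 in DMSO and 8.45 in GSK126).

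Untreated E2F1 peaks flanked the arrays at long and short distances. RRM1, a subunit of ribonucleotide reductase, had a fold of 12.3 at 272 kb to the left of the class I cluster, and CAVIN3, a component of caveolae, had 6.10 at 120 kb to its right. MRPL17, a mitochondrial ribosomal protein, had 7.29 at 82.3 kb to the left of the OR2AG2 to OR2D3 cluster. WEE1, the kinase that restrains entry into mitosis, had 11.5 on the far side, 2652 kb away. To the left of the OR4B1 to OR4A47 cluster the nearest was PSMC3, a proteasome subunit (20.3), and to the right of OR4A16 to OR5AK2 it was SLC43A3 (11.7, 437 kb away), with no untreated peak between them. SELENOH (6.71) and FAM111B (27) flanked OR9Q1 to OR5B21. FAM111A (44.6) and CPSF7 (7.37) flanked OR5AN1 to OR10V1, and HSPA8 (5.78) and NRGN (4.41) flanked OR6X1 to OR8A1.

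The letters of the promoters differed from those of other genes. RefSeq promoter sequences (GRCh38.p14, 250 bases before to 50 after the start) were matched for 133 of the 178 receptor genes and for 15315 protein-coding genes in all. The E2F motif was present in 1 receptor promoter (0.752%) and in 17.4% of all promoters. TAATTA, the letters bound by homeodomain proteins such as LHX2, a regulator of receptor choice, was present in 31 receptor promoters (23.3%) and in 3.28% of all. TATAAA was present in 47 (35.3%) against 9.64%, and CCCNNGGG, the letters bound by EBF factors, in 10 (7.52%) against 21.8%. The 176 receptor promoters matched on other chromosomes had shares of 0.568% for the E2F motif, 22.2% for TAATTA, 35.2% for TATAAA and 7.95% for CCCNNGGG. Both strands were searched, and none of these motifs is contained in another. TAATTA and TATAAA hold A and T alone, and the median GC content around the TSS was 38.9% at the receptors against 56.0% at all genes. Promoters of genes in the same GC range were not searched, so the part of base composition in these shares was not tested. The promoter of OR2AG2, the single receptor with an E2F motif, and that of OR51F2, which had the strongest H3K27me3 peak, are shown in gene orientation with the E2F motif in capitals.
OR2AG2, chr11:6771927-6772226, minus strand: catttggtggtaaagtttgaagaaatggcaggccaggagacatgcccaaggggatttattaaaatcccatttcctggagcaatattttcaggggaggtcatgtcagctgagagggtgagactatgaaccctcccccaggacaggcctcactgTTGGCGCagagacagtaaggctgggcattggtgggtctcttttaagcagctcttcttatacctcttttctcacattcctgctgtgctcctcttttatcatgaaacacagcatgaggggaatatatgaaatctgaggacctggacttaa
OR51F2, chr11:4821071-4821370, plus strand: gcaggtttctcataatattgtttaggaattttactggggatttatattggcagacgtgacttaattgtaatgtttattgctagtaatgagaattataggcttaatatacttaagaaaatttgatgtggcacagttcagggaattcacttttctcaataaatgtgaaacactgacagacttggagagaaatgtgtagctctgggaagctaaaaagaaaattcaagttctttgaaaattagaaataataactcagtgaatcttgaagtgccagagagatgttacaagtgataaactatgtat
OR2AG2 had no E2F1 peak in any list and no H3K27me3 peak.

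To ask whether the receptor genes followed the rest of the genome when E2F1 was targeted, H3K27me3 peaks that overlapped the 1 kb on either side of a TSS by at least 1 bp were counted. In control shRNA 59 of 178 receptor genes had such a peak (33.1%, 26.3 to 40.6%), against 27.1% of all genes. In shE2F1 67 had one (37.6%, 30.5 to 45.2%), against 51.2% of all genes. The receptor share was 4.49 percentage points higher in shE2F1, a difference that was not tested. The intervals do not measure it, since the same genes were scored in both libraries. The share of the other 1139 genes on chromosome 11 was 29.9% in control shRNA and 57.2% in shE2F1. Receptor genes on other chromosomes had 34.5 and 39.9%. Genes in the GC range of the receptors had 29.2 and 35.4%, a difference of 6.21 points that resembled that of the receptors in size.

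Gene by gene, 51 receptors had a peak in both libraries and 103 in neither. A peak was called in shE2F1 alone at 16 receptors (8.99%, 5.23 to 14.2%), compared with 26.0% of all genes and 10.0% of genes in the same GC range. A peak was called in control shRNA alone at 8 receptors (4.49%, 1.96 to 8.66%), compared with 1.94% of all genes and 3.78% of genes in the same GC range.

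The peaks at receptors were close to the calling threshold, and the direction of the difference turned with it. The median fold was 3.35 in control shRNA and 3.08 in shE2F1, and 28 of the 59 and 12 of the 67 genes had a peak whose −log10 q reached 2. Counting these alone, the share of receptors was 15.7% in control shRNA and 6.74% in shE2F1, whereas that of all genes was 14.6 and 28.9% and that of other genes on chromosome 11 was 17.8 and 33.9%. Peaks of this strength were called in shE2F1 alone at 3.37% of receptors (all genes, 18.3%) and in control shRNA alone at 12.4% (all genes, 3.97%). Genes in the GC range of the receptors had 13.6 and 12.6%, with 6.61% in shE2F1 alone and 7.65% in control shRNA alone. Receptors on other chromosomes had 18.9 and 13.9%, with 3.36% in shE2F1 alone and 8.40% in control shRNA alone. At neither threshold did the receptors of chromosome 11 show the difference seen over all genes. At the stricter one their share was lower in shE2F1, as was that of receptors on other chromosomes.

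The strongest receptor peaks in control shRNA were in genes of both classes. The class I gene OR51F2 had the highest fold, 5.61 (−log10 q 5.10), and 3.95 in shE2F1. OR51G2 (4.16 in control shRNA, 3.30 in shE2F1), OR51M1 (3.89 and 2.94), OR52L1 (3.86 and 3.26), OR4D9 (3.8 and 3.10) and OR8D1 (3.8 and 3.13) followed. Since these genes were ranked by their fold in control shRNA, the higher value there follows in part from the choice. The median fold of all H3K27me3 peaks was also higher in control shRNA (3.17) than in shE2F1 (2.95). OR5A2 (3.87) and OR5B17 (3.81) had a peak within 1 kb of a TSS in control shRNA and none there in shE2F1. Over the gene body OR5A2 was covered to 35.0 and 23.3%, and OR5B17 to 20.4 and 0%. In shE2F1 the highest folds belonged to OR10G7 (4.06, no control peak near a TSS), OR52P1 (4.03, control 3.62), OR4D6 (3.95, control 3.66), OR51F2, OR56A3 (3.88, no control peak near a TSS), OR8B12 (3.67, control 3.51), OR51Q1 (3.57, control 3.26) and OR52E2 (3.55, control 3.25). The OR56A3 peak also lay within 1 kb of a TSS of TRIM5, a ubiquitin ligase that restricts retroviruses. Each fold is that of the strongest peak within 1 kb of any TSS in its library. At OR51M1, OR4D9 and OR8B12 the peaks of the libraries did not overlap, so their folds belong to different sites.

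Of the receptors called in shE2F1 alone, 2 of 16 had a −log10 q that reached 2, and of those called in control shRNA alone 5 of 8 did. The 5 receptors with the highest −log10 q among those called in shE2F1 alone were OR56A3 (3.49), OR10G7 (3.14), OR56A1 (1.88), OR5A1 (1.68) and OR5P2 (1.52). Among those called in control shRNA alone they were OR5A2 (2.79), OR5B17 (2.32), OR52N2 (2.2) and the pair OR51E2 and OR51C1P, which share a peak at the same TSS (2.02).

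Some receptors are known to be transcribed outside the nose. OR51E1 and OR51E2 are expressed in prostate, and OR51E2, also known as the prostate-specific G protein-coupled receptor, responds to short-chain fatty acids. OR51E1 had an H3K27me3 peak in both libraries (fold 3.18 and 2.81). OR51E2 had a fold of 3.57 in control shRNA and no peak within 1 kb of a TSS in shE2F1, where peaks covered 20.04% of its gene body against 7.63% in control shRNA. OR2AT4, a receptor described in skin keratinocytes and the one gene outside the clusters, had folds of 3.51 and 3.40. OR51B4 had no peak in either library. OR51B5 had folds of 3.35 and 3.19 at the distal TSS of a gene model that spans chr11:5303444-5505652. None of these 5 genes had an E2F1 peak in any list.

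The class I genes were marked more often than the class II genes. Of the 57 class I genes, 32 had a peak in control shRNA (56.1%, 42.4 to 69.3%) and 33 in shE2F1 (57.9%). Of the 121 class II genes, 27 had a peak in control shRNA (22.3%, 15.2 to 30.8%) and 34 in shE2F1 (28.1%). All class I genes lie in the OR52B4 to OR52W1 cluster, so class and location cannot be told apart.

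Coverage of the clusters differed far more between clusters than between libraries. The clusters span 5.91 Mb, of which 7.39% lay inside H3K27me3 peaks in control shRNA and 9.27% in shE2F1, a log2 ratio of 0.33. The ratio was 0.26 on chromosome 11 outside the clusters (7.85 and 9.43%) and 0.32 over the autosomes and X (4.92 and 6.14%), close to each other. The mean peak width in the clusters was 889 bp in control shRNA and 1037 bp in shE2F1. Counting peaks whose −log10 q reached 2, the ratio was −0.53 in the clusters (2.86 and 1.99%), −0.10 on the rest of chromosome 11 and −0.15 over the autosomes and X.

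The marked and unmarked arrays were neighbours. The OR9Q1 to OR5B21 cluster (13 genes, chr11:58023881-58508105) had the highest coverage, 15.0% in control shRNA and 17.4% in shE2F1, and 11 and 10 of its genes had a peak. The class I cluster (57 genes, chr11:4367263-6200186) was covered to 12.8 and 14.8%. The OR5AN1 to OR10V1 cluster (8 genes, chr11:59358895-59713845) was covered to 10.2 and 12.9%, and the OR6X1 to OR8A1 cluster (24 genes, chr11:123753580-124582942) to 9.59 and 13.3%. In contrast, the OR4A16 to OR5AK2 cluster (50 genes, chr11:55343201-56989843) was covered to 0.124 and 0.906%, and 0 and 3 of its genes had a peak.

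The other 5 clusters were covered to at most 2.97% in control shRNA. OR2AG2 to OR2D3 (8 genes, chr11:6765626-6921994) was covered to 0.238 and 0.387%, with a peak at none of its genes. OR5P2 to OR10A3 (4 genes, chr11:7795974-7941708) was covered to 1.93 and 1.72%, and OR4B1 to OR4A47 (7 genes, chr11:48216810-48489722) to 2.97 and 6.47%, with a peak at 2 and 3 of its genes. OR4C13 to OR4C45 (3 genes, chr11:49952391-50033794) had no H3K27me3 peak in either library, and OR4C46 to OR4A5 (3 genes, chr11:54603069-54707902) was covered to 0.493% in control shRNA and 0 in shE2F1. The GC content of the clusters ranged from 36.4% (OR4A16 to OR5AK2) to 40.7% (OR5AN1 to OR10V1). It was 37.9% in the highly covered OR9Q1 to OR5B21 and 38.8% in the class I cluster. In the nearly bare OR2AG2 to OR2D3 it was 37.7%, and in OR4C46 to OR4A5 36.5%. Whether GC content has a part in the coverage of the clusters was not tested.

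**Figure D2:**
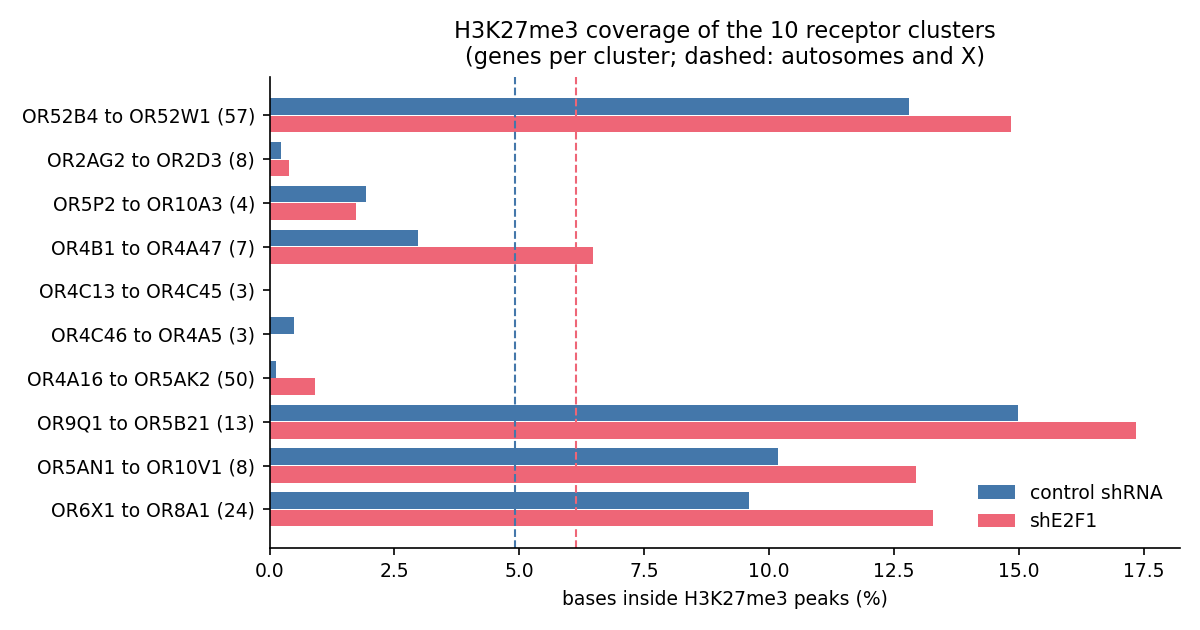
Percent of bases inside H3K27me3 peaks (x axis) in the 10 receptor clusters in order along the chromosome (y axis, number of receptor genes in parentheses), control shRNA in blue and shE2F1 in red, with the autosomes and X as dashed lines (4.92 and 6.14%). 4 clusters lie above the dashed lines in both libraries, and OR4A16 to OR5AK2, with 50 genes, is covered to less than 1% in each.

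The large class II cluster was bare over most of its length. In bins of 50 kb, 29 of its 33 bins had no covered base in control shRNA and 21 in shE2F1. The first control shRNA peak lay 1279 kb from its first gene, beyond 43 of the 50 receptors, and the first DMSO E2F1 peak lay 1059 kb from it, beyond 35 receptors. Its 9 DMSO peaks and 1 GSK126 peak thus all fell in the right-hand portion of the array. The DMSO peaks lay between 1059 and 1625 kb and the H3K27me3 peaks of control shRNA between 1279 and 1576 kb, so some DMSO peaks lay outside that stretch. In shE2F1 the first of 21 H3K27me3 peaks lay 160 kb from the first gene. Mappability and copy number were not measured here, and their part in this pattern was not tested.

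The class I cluster had a median coverage of 13.5% per 50-kb bin in control shRNA and 15.5% in shE2F1, with stretches of little or none. The bins from 1200 to 1350 kb were covered to at most 1.3 and 1.07%. The 3 bins from 850 to 1000 kb had no covered base in either library. They hold the β-globin genes HBB, HBD, HBG1, HBG2 and HBE1, which encode chains of haemoglobin, and OR51B4, OR51B2 and OR51B6. The canonical TSS of OR51B5 also lies in them, and the peaks given above for OR51B5 were at its distal TSS. The highest bin, from 1100 to 1150 kb, was covered to 47.4 and 41.0%. In the OR6X1 to OR8A1 cluster coverage between 150 and 250 kb was at most 0.5% in control shRNA and 3.0% in shE2F1, and it was highest in the last 4 bins (20.1 to 33.1% and 31.7 to 37.2%).

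**Figure D3:**
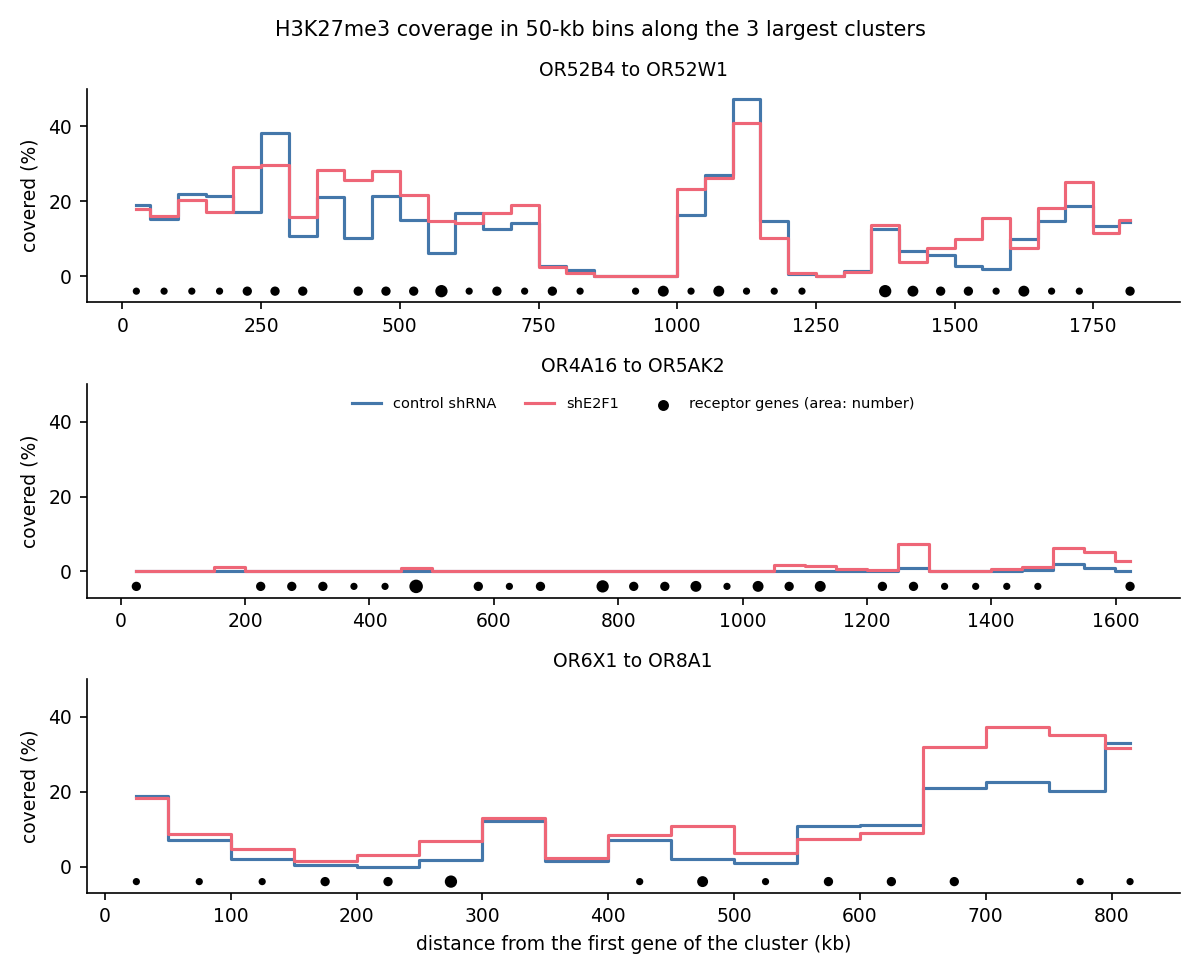
H3K27me3 coverage (y axis, % of bases) in 50-kb bins along the 3 largest clusters (x axis, kb from the first gene), control shRNA in blue, shE2F1 in red and receptor genes as dots whose area gives their number per bin. The OR4A16 to OR5AK2 cluster stays at or below 7.38% in every bin, whereas bins of the other clusters reach 47.4%.

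Within the clusters coverage was denser on receptor genes than between them, although most covered bases lay off the genes (163 of 437 kb lay on them in control shRNA and 183 of 548 kb in shE2F1). Gene bodies of receptors were covered to 16.7% in control shRNA and 18.8% in shE2F1, and the rest of the clusters to 5.55 and 7.40%. Around the start codon of the canonical transcript (177 genes with an annotated one), the share of receptors inside a peak averaged 24.0% in control shRNA and 25.4% in shE2F1 between 200 and 800 bp downstream, in the coding exon. It averaged 8.19 and 12.1% from 3000 to 2000 bp upstream and 6.03 and 6.40% from 2000 to 3000 bp downstream. At the start codon itself it was 11.3 and 14.1%, and 200 bp upstream of it 6.78 and 11.3%. Coverage of the receptors was thus highest over the coding sequence and low just before it.

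The stretch of higher coverage had the width of a coding exon, and base composition changed at the same positions. Mean GC content was 46.4% between 200 and 800 bp downstream of the start codon, 36.8% upstream and 36.3% downstream. Inside a DMSO E2F1 peak lay 6 of the 177 genes at 200 bp and at 400 bp and 0 at 1000 bp, and inside a GSK126 peak 1 at 200 and at 400 bp and 0 at 600 bp. Receptors on other chromosomes had 20.7 and 23.4% in the same stretch, 12.7 and 16.2% upstream and 11.2 and 12.4% downstream, with a GC content of 48% in the exon. Genes in the same GC range that are no receptor had 8.03 and 10.5% there and 7.08 and 8.26% upstream. Whether base composition has a part in the coverage of the exons was not tested.

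**Figure D4:**
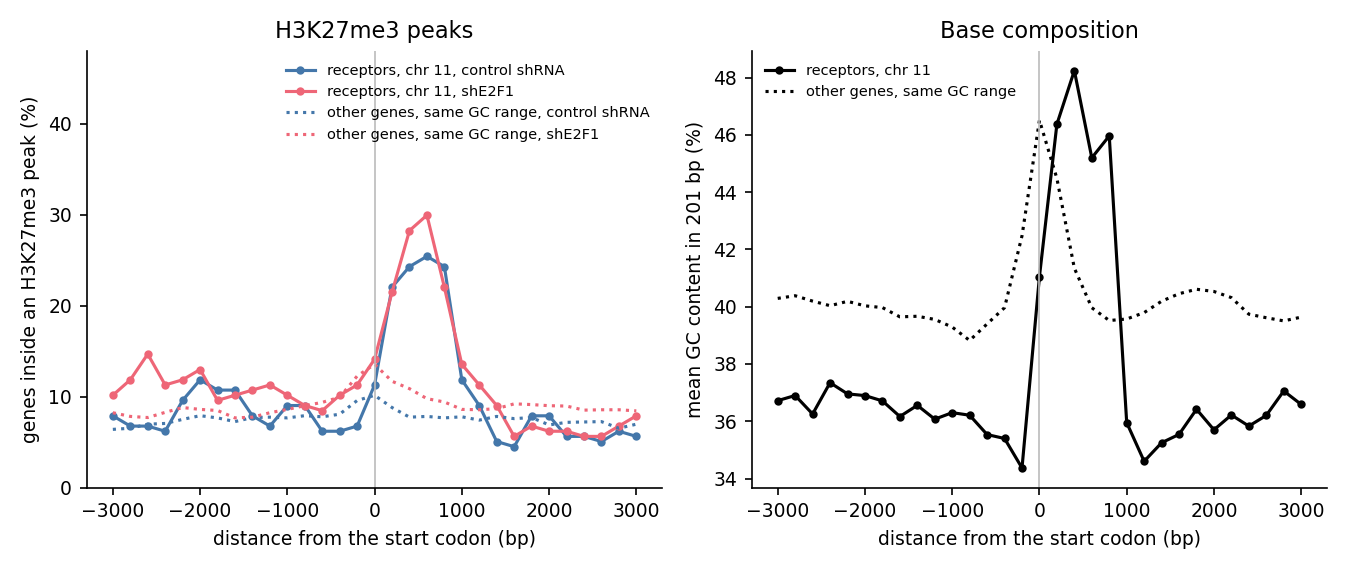
Left, share of genes inside an H3K27me3 peak (y axis, %) by distance from the start codon (x axis, bp) for receptor genes on chromosome 11 (solid, n = 177) and other genes in the same GC range (dotted, n = 2461), control shRNA in blue and shE2F1 in red; right, mean GC content within 100 bp of the same positions. In the receptors both curves are raised between 200 and 800 bp, where coverage averages 24.0 and 25.4%.

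The GC content around the TSS differed between marked and unmarked receptors. Among receptors with 35 to 40% GC, 16.9% (8.76 to 28.3%) had a peak in control shRNA and 24.6% in shE2F1, and genes of the same stratum that are no receptor had 28.2 and 31.7%. Among receptors with 40 to 45% GC the shares were 58.1% (44.8 to 70.5%) and 62.9%, against 32.0 and 38.6%. In control shRNA the receptors with a peak had a median GC content of 41.5% and those without 37.3%. The order was the same within the class I cluster (41.7 and 39.5%) and within OR6X1 to OR8A1 (40.8 and 37.6%), with wide overlap of the ranges.

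**Figure D5:**
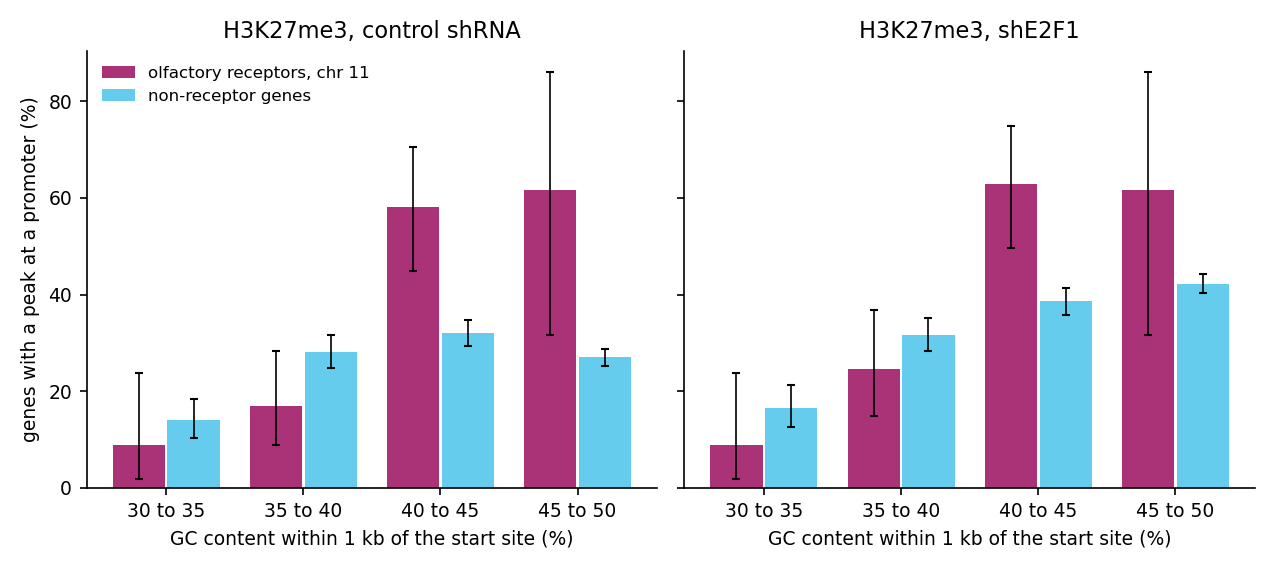
Share of genes with an H3K27me3 peak at a promoter (y axis, %) by GC content within 1 kb of the TSS (x axis, %), receptor genes on chromosome 11 in purple and genes that are no receptor in blue, with exact 95% intervals, in control shRNA (left) and shE2F1 (right). Between 30 and 50% GC the receptors range from 8.82 to 62.9%, while the other genes stay between 14.0 and 42.3%, and 2 receptors lie above 50%.

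Other clustered families that are silent in most tissues were read alongside. Taste receptors had an H3K27me3 peak at 7 of 27 genes in each library. Keratin-associated proteins, which are made in hair, had 19.1 and 26.6% of 94 genes, and clustered protocadherins, the adhesion proteins of neurons, 11.3 and 17.0% of 53. These differences of 0, 7.45 and 5.66 points stood beside 4.49 points in the receptors of chromosome 11. ZNF genes on chromosome 19, also a clustered family, had 16.5 and 42.6% of 249, a difference of 26.1 points.

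The genes that serve olfactory signalling were read from a list of 27. An E2F1 peak was called at 1 of them in untreated, 6 in DMSO and 9 in GSK126 (3.70, 22.2 and 33.3%), below the 5.85, 33.5 and 51.5% of all genes. ATF5, a transcription factor of the sensory neuron that acts after receptor choice and is widely expressed, was the one called in untreated cells, and its folds were 7.82 in DMSO and 16.5 in GSK126. ADCY3, the adenylyl cyclase of the odorant cascade that also serves primary cilia of other cells, had 8.24 and 11.2, and LDB1, the partner of LHX2, had 5.68 and 10.5. The lamin B receptor LBR had 4.98 and 7.85, and the demethylase KDM1A had 6.54 in GSK126.

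H3K27me3 was called at 14 of the 27 genes in control shRNA and 17 in shE2F1 (51.9 and 63.0%), against 27.1 and 51.2% of all genes. The transcription factors LHX2 (fold 3.52 and 3.28), EBF1 (3.27 and 3.31), EBF2 (3.50 and 3.41) and EBF3 (3.52 and 3.77), the G protein subunit GNAL (3.37 and 3.65) and the channels CNGB1 (2.93 and 3.46) and ANO2 (3.95 and 3.40) had a peak in both. So did ATF5, with the highest H3K27me3 fold of the 27 genes in each library (4.23 and 4.54), and EBF4 (2.78 and 3.83). EBF4, like ATF5, also had E2F1 peaks (3.67 in DMSO and 6.64 in GSK126). CNGA4 (2.65), GNB1 (3.29) and LBR (2.75) had one in shE2F1 alone, which was the case for 26.0% of all genes, and none had one in control shRNA alone. OMP and CNGA2, the olfactory marker protein and a subunit of the cyclic nucleotide-gated channel, had neither an E2F1 nor an H3K27me3 peak.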

How the data were processed

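ChIP-seq peak lists of 5 libraries (3 E2F1, 2 H3K27me3; 1 per condition) were used. Per the methods, the authors trimmed reads with cutadapt (4.5), aligned them to GRCh38/hg38 with Bowtie2 (2.5.2) and called peaks per library with MACS2 (2.2.9.1), narrow at a q cutoff of 0.01 for E2F1 and broad at 0.1 for H3K27me3. The control library is not given in the sources used here. Chromatin was sonicated for E2F1 and cut with micrococcal nuclease for H3K27me3. The deposited lists give the fold, a ratio of signal to background, and −log10 p and −log10 q. The deposited score was not used, and the deposited summit offset placed E2F1 summits. Lists held 1056, 15703 and 14276 E2F1 peaks (untreated, DMSO, GSK126) and 123957 and 135683 H3K27me3 peaks (control shRNA, shE2F1). Read depth is unknown. Fragments at E2F1 summits were solved from fold and p within a relative error of 2e-05, with a median of 19, 17 and 30.

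Genes and TSSs came from GENCODE 44, sequence from hg38 and RefSeq promoters. Overlaps were computed with Python 3.11.15, numpy 2.4.6 and pandas 2.3.3, and the functions were tested on simulated data. Intervals are Clopper-Pearson at 95% (scipy 1.17.1), and a count of 0 allows 3 counts. Named genes were all receptors with an E2F1 peak, the 8 with the highest H3K27me3 fold per library, the 5 with the highest −log10 q among those called in 1 library alone, 5 receptors known outside the nose, the nearest untreated E2F1 genes flanking each cluster and genes inside clusters with an E2F1 peak. The members and lists were chosen with earlier results of these data known. Alternatives were other windows, thresholds, TSS sets and cluster gaps.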

Additional observations from a re-analysis of the deposited data

How the results depend on the processing

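Of 61 alternative values, 31 stayed within the tolerance of the main value (1.5 times for counts, the 95% binomial interval over bases for coverage, which is narrow, and for log2 ratios no change in either coverage), 29 moved and 1 reversed; 6 were chosen after seeing the data. The count of 0 receptors with an untreated E2F1 peak was the same under all 5 alternatives run. Requiring a −log10 q of at least 5 left 3 receptors with an E2F1 peak in DMSO and 0 in GSK126. Windows of 500 bp gave 4 in DMSO, and windows of 5 kb gave 11 in DMSO and 5 in GSK126. Without the OR6X1 to OR8A1 cluster the counts were 2 and 1.

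A −log10 q of at least 2 left 28 receptors with an H3K27me3 peak in control shRNA and 12 in shE2F1, with 6 called in shE2F1 alone and 22 in control shRNA alone. At 5 these counts were 1, 0, 0 and 1. Receptors called in control shRNA alone numbered 4 with windows of 5 kb and 17 with the midpoint of the peak in the window.

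Cluster coverage was 2.86% in control shRNA and 1.99% in shE2F1 where −log10 q had to reach 2, with a reversed log2 ratio of −0.53. It was 8.76 and 10.8% (ratio 0.30) with gaps of up to 100 kb, 7.41 and 9.36% (ratio 0.34) without TSSs of other genes, and 10.2 and 12.5% without OR4A16 to OR5AK2. The ratio was 0.45 without OR52B4 to OR52W1 and 0.29 without OR6X1 to OR8A1. The cause of these shifts was not tested beyond the construction of each alternative.

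Limits: with 1 library per condition and called peaks alone, differences in enrichment, depth and calling between libraries cannot be told apart. Most receptor peaks lay near the threshold, and enrichment below it is not seen in called peaks. Reads shared between similar receptor genes, pseudogenes and copy number of the arrays were not examined. No paired analysis was possible because each condition had a single library and the result comes from no test.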
